A study of Rattus norvegicus with 8 samples.

Results

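The acyl-CoA dehydrogenases of mitochondria and the electron transfer flavoprotein system that takes up their electrons were followed as 10 genes: Acadvl, Acadl, Acadm, Acads, Acadsb, Ivd, Gcdh, Etfa, Etfb and Etfdh. They were chosen by function, with earlier results of these data known. For each gene, every probe whose transcript maps to its symbol in RefSeq was taken. Each had 1 probe, all 10 passed the filter on dim probes, and they stand among 15203 genes and unnamed features that were tested. After 28 days of dietary PFOS, Gcdh was 1.87-fold higher and Acadm 1.31-fold higher than in control livers, and these 2 passed the test on the log2 ratio. The call of Gcdh held in 22 of 24 alternative settings, while that of Acadm held in 6 and in none of the 8 fits with an array left out. Etfa, with a similar size of change, passed in the liver channel alone, and none of the 10 genes was called lower.

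The livers came from adult male Sprague-Dawley rats. The PFOS group, 4 rats, was fed potassium perfluorooctanesulfonate, a fluorinated surfactant, at 50 mg/kg diet for 28 days, and the control group, also 4 rats, was fed control diet. Each rat had its own two-colour array, with liver RNA labelled in Cy5 and a universal rat reference RNA, a commercial pool, labelled in Cy3 on every array and no dye swap. The title of the series is about microRNAs of the liver and thyroid hormone homeostasis, and the arrays measured messenger RNA.

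Acyl-CoA dehydrogenases carry out the first step of mitochondrial beta-oxidation, the removal of hydrogen from the acyl chain, and each enzyme prefers a range of chain lengths or a branched or dicarboxylic acyl group. Their electrons go to FAD, then to the electron transfer flavoprotein (ETF, the heterodimer of the Etfa and Etfb products), then through ETF-ubiquinone oxidoreductase (Etfdh) to ubiquinone in the inner membrane. In rodent liver many genes of fatty acid oxidation are known targets of PPARalpha, a nuclear receptor that binds direct repeats of a short half-site together with RXR.

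The promoters of 9 of the 10 genes were in the RefSeq table of assembly GRCr8, each with the 300 bases around the transcript start. They were searched on both strands for 2 copies of AGGTCA in the same orientation with any 1 base between them (a direct repeat 1). Acadvl held a match with 1 mismatch, on the strand of the gene, that began 17 bases upstream of the transcript start used for its window. The annotated 5' end of Acadvl, at chr10:55236786, lies further upstream, so this match falls inside the annotated gene. Etfa held a match with 2 mismatches that began 154 bases upstream of the start, on the opposite strand. Neither of the genes called in the ratio, Gcdh and Acadm, had a match with at most 2 mismatches within these 300 bases. Sequence outside the windows was not searched, so a match there cannot be seen. Among all 33469 promoters in the table, 0.439% had a match with at most 1 mismatch and 3.77% with at most 2, so 1 and 2 of the 9 promoters are counts too small to set against these shares. The 4 sequences are shown because these are the genes whose PFOS and control values did not overlap, and capitals mark the match. They lie at chr10:55236656-55236955 (Acadvl, minus strand), chr8:64787916-64788215 (Etfa, minus strand), chr19:40167813-40168112 (Gcdh, plus strand) and chr2:245542815-245543114 (Acadm, minus strand).
Acadvl promoter: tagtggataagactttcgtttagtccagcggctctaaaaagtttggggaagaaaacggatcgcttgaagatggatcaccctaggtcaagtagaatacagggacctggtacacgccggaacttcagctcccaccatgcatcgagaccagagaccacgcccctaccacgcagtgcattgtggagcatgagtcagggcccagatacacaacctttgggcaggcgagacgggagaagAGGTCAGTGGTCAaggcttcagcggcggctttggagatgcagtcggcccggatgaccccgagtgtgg
Etfa promoter: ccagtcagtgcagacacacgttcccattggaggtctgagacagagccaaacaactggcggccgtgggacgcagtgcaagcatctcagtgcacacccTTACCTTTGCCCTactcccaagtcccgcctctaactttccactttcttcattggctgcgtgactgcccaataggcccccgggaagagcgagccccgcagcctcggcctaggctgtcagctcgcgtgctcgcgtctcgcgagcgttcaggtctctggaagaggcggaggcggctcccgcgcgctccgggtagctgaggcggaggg
Gcdh promoter: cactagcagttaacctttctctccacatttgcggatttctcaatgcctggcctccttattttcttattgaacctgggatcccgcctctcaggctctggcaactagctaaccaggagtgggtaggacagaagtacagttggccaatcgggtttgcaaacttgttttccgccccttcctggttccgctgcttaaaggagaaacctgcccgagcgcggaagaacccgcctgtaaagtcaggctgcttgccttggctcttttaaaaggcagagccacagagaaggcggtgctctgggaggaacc
Acadm promoter: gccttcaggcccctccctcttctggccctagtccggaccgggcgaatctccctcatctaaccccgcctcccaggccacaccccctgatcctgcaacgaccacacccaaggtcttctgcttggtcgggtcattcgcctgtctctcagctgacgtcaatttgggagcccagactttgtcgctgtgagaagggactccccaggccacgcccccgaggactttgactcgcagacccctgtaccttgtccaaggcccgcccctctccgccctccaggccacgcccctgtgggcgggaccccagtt
A match describes these letters only, and no binding was measured on these arrays.

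Per array, the median spot had 116 to 160 Cy5 units, the background near it 71 to 75, and 50.34% to 59.06% of probes were well above background. All arrays were on 1 slide and scanned on 1 day, with 2 arrays of each group in each slide row, and row 1 was brighter (Cy5 medians 154.5 to 160) than row 2 (116 to 138). All 10 probes were well above background in both channels on all 8 arrays. The Gcdh and Acadm probes were each printed on 10 spots of the array and the other probes on 2, so that an array value averages more spots for these 2 genes. Over the 8 arrays, 7 flagged spots of Acadm and 2 of Gcdh were left out. For Acadm these were spot 4 on every control array but only on PFOS 2 and PFOS 4, and spot 9 on control 4. The Acadm values of the 2 groups thus average partly different spots. Values below are log2 ratios of liver over reference after normalization, given for PFOS 1 to 4 and control 1 to 4, and rats of the 2 groups are not paired. A change is the PFOS mean minus the control mean, and a gene is called where limma's p, adjusted by Benjamini-Hochberg over all 15203 features, is under 0.05.

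Over all features, 1.83% were called higher in PFOS livers and 2.14% lower, and in 5.91% every PFOS value lay above every control value. Of the 10 genes, 2 were called higher, 0 were called lower, and in 4 (Gcdh, Acadm, Etfa and Acadvl) every PFOS value lay above every control value. Their median log2 change was 0.15, beside -0.01 over all features, and 9 of the 10 changes were above 0. At an unadjusted p under 0.05 there were 5 of 10, all with positive changes (Gcdh, Acadm, Etfa, Etfdh and Acadvl), beside 9% of all features with a positive change. For Etfdh this rests on 1 spot, without which the 95% interval was -0.14 to 0.76. In whole liver a change in RNA per cell and a change in the share of a cell type cannot be told apart.

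**Figure D1:**
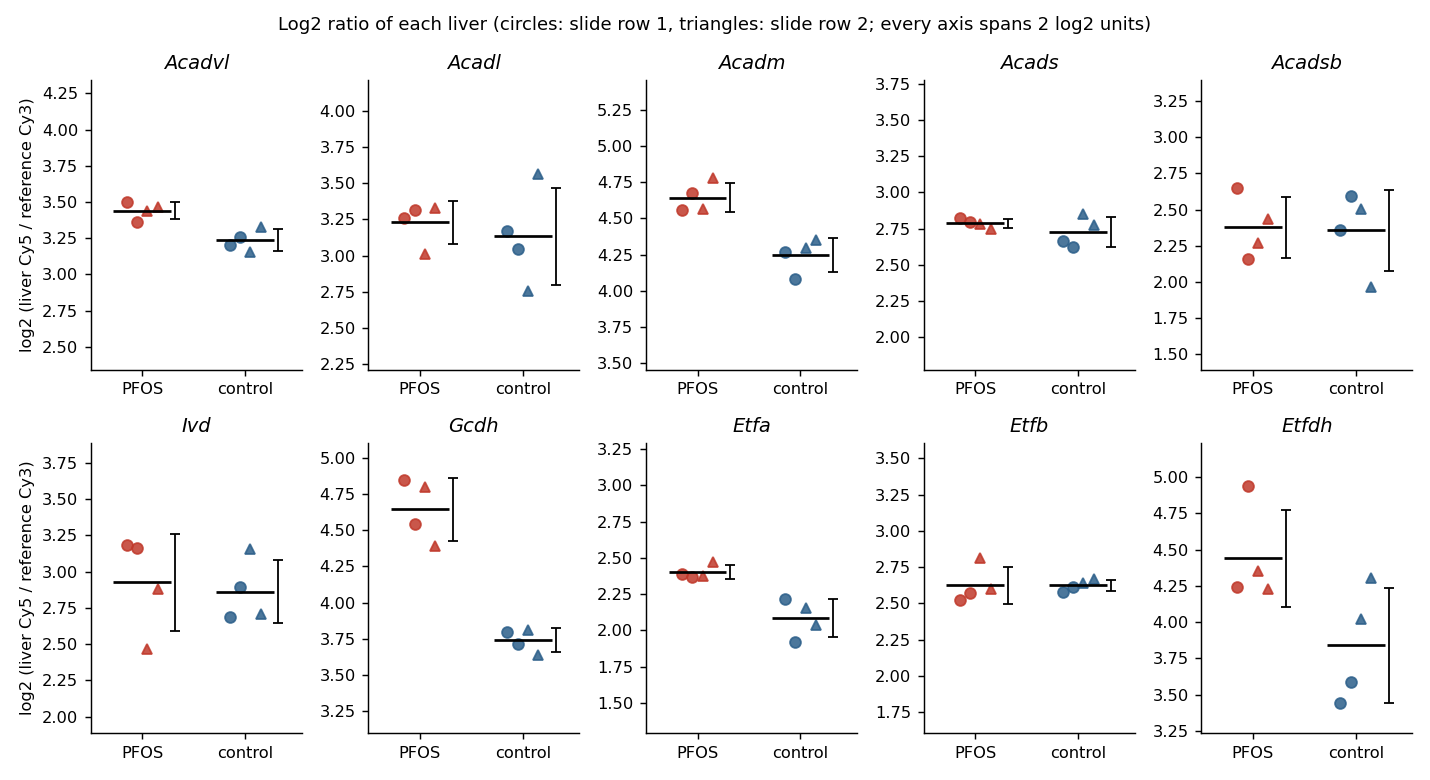
Log2 ratio of liver Cy5 over reference Cy3 (vertical axis) of each PFOS rat (red, left) and control rat (blue, right) for the 10 genes, with the group mean as a bar and the SD beside it (n = 4 each). Gcdh sits between 4.388 and 4.843 in PFOS livers and between 3.640 and 3.813 in control livers, while the groups of Acads, Acadsb, Ivd, Acadl, Etfb and Etfdh overlap.

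Among the dehydrogenases of straight-chain fatty acids, Acadm, the medium-chain enzyme, was called higher. Acadm had log2 ratios of 4.560, 4.672, 4.568 and 4.776 in PFOS livers, against 4.265, 4.084, 4.296 and 4.354 in control livers. The lowest PFOS rat was above the highest control rat. The change was 0.39 (SE 0.089, 95% interval 0.19 to 0.59), a fold of 1.31, with an adjusted p of 0.0441 in limma. That p lies close to the threshold: leaving out any 1 of the 8 arrays gave changes of 0.34 to 0.43 with adjusted p of 0.0611 to 0.103, and Cy5 alone gave 0.33 with an adjusted p of 0.105.

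Acadvl, the very-long-chain enzyme bound to the inner membrane and the carrier of the closest promoter match above, had log2 ratios of 3.498, 3.359, 3.435 and 3.463 in PFOS livers, against 3.207, 3.258, 3.152 and 3.329 in control livers. The groups did not overlap, but the lowest PFOS rat and the highest control rat were 3.359 and 3.329, nearly the same. Its change of 0.20 (SE 0.074) did not pass the test (limma, adjusted p = 0.175). Acadl, the long-chain enzyme, ranged from 3.013 to 3.328 in PFOS livers and from 2.755 to 3.561 in control livers, with both extremes in control rats. The upper one, control 4, averages spots of 3.884 and 3.238, and the second alone lies below the highest PFOS rat. Its change was 0.10 with a 95% interval of -0.26 to 0.46, wide enough to hold the change of Acadm, and without the spot of 3.884, in a fit chosen after seeing the data, 0.18 (95% interval -0.10 to 0.45, adjusted p = 0.456 in limma). Acads, the short-chain enzyme, ranged from 2.746 to 2.820 in PFOS livers and from 2.625 to 2.848 in control livers. Its change was 0.06 (95% interval -0.11 to 0.23), an interval that lies below the Gcdh value and below the Acadm estimate of 0.39. It overlaps the Acadm interval of 0.19 to 0.59. Acadm exceeded Acads by 0.34 (exact permutation test over the 8 arrays, p = 0.0286, the smallest possible, adjusted over 45 pairs 0.129), which did not pass.

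Gcdh, which oxidises and decarboxylates glutaryl-CoA in the breakdown of lysine and tryptophan, had the largest change of the 10 genes. Its log2 ratios were 4.843, 4.541, 4.798 and 4.388 in PFOS livers, against 3.800, 3.711, 3.813 and 3.640 in control livers. All PFOS rats lay above all control rats. On the unflagged spots, the values ran from 4.243 to 5.009 in PFOS livers and from 3.471 to 3.958 in control livers, so no PFOS spot reached down to a control spot. In the scanner's own units, before any correction, the Cy5 medians were 66490, 52980, 42110 and 33880 in PFOS livers and 34430, 34630, 30370 and 20570 in control livers (to 4 digits). There the groups overlap across slide rows, and within each row both PFOS arrays were brighter than both control arrays. The change in the ratio was 0.90 (SE 0.112, 95% interval 0.65 to 1.16), a fold of 1.87 (1.57 to 2.23), with an adjusted p of 0.00376 in limma. It was 0.94 within slide row 1 and 0.87 within slide row 2.

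The enzymes of branched-chain amino acids did not pass the test. Ivd, which oxidises isovaleryl-CoA from leucine, ranged from 2.469 to 3.186 in PFOS livers and from 2.685 to 3.159 in control livers. Its change was 0.06 (SE 0.173), with 0.39 in slide row 1 and -0.26 in slide row 2. Acadsb, which oxidises short branched acyl-CoA from isoleucine, ranged from 2.156 to 2.647 in PFOS livers and from 1.965 to 2.597 in control livers, with a change of 0.02 (SE 0.155). Its probe had raw Cy5 medians of 266 to 515 units in PFOS livers and 229.5 to 481 in control livers over a local background of 66 to 76 units. The 95% intervals, -0.33 to 0.45 for Ivd and -0.33 to 0.37 for Acadsb, leave room for a change of the size seen in Etfa.

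Of the ETF subunits, Etfa passed the test in Cy5 alone and Etfb passed in neither readout. Etfa, the alpha subunit, had log2 ratios of 2.391, 2.369, 2.377 and 2.470 in PFOS livers, against 2.216, 1.920, 2.155 and 2.040 in control livers. The PFOS rats lay close together, with an SD of 0.046 beside 0.131 in control rats, and above every control rat. The change of 0.32 (SE 0.085), a fold of 1.25, did not pass in the ratio (limma, adjusted p = 0.0765) and passed in Cy5 alone with 0.37 (SE 0.076, adjusted p = 0.026). Etfb, the beta subunit, ranged from 2.521 to 2.810 in PFOS livers and from 2.581 to 2.668 in control livers, and its means were 2.625 and 2.626. Its change was -0.00081 with a 95% interval of -0.19 to 0.19. The difference between the changes of Etfa and Etfb was 0.32 (exact permutation test over the 8 arrays, two-sided p = 0.0571, adjusted over 45 pairs 0.198), and 0.43 in Cy5 alone (p = 0.0286, adjusted 0.0989). The last p is the smallest that the 8 arrays allow, so no larger difference could have given a smaller one.

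Etfdh, the membrane enzyme that passes the electrons on to ubiquinone, had log2 ratios of 4.240, 4.937, 4.351 and 4.231 in PFOS livers, against 3.443, 3.585, 4.025 and 4.306 in control livers. Its change of 0.60 (SE 0.219, 95% interval 0.11 to 1.09) was the second in size and did not pass (limma, adjusted p = 0.173). The highest value, PFOS 2, rests on 1 of the 2 spots of that array. That spot had 208 units in Cy3, where the other Etfdh spots had 1320 to 1510, while its Cy5 signal of 5198 units lay among the others, and the scanner software did not mark it. Without it, in a fit chosen after seeing the data, PFOS 2 had 3.784 and the change was 0.31 (SE 0.1997, adjusted p = 0.419). Cy5 alone gave a change of 0.24 (SE 0.2245, adjusted p = 0.582). The change was also unequal between slide rows, with 1.08 in row 1, which holds PFOS 2, and 0.13 in row 2.

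**Figure D2:**
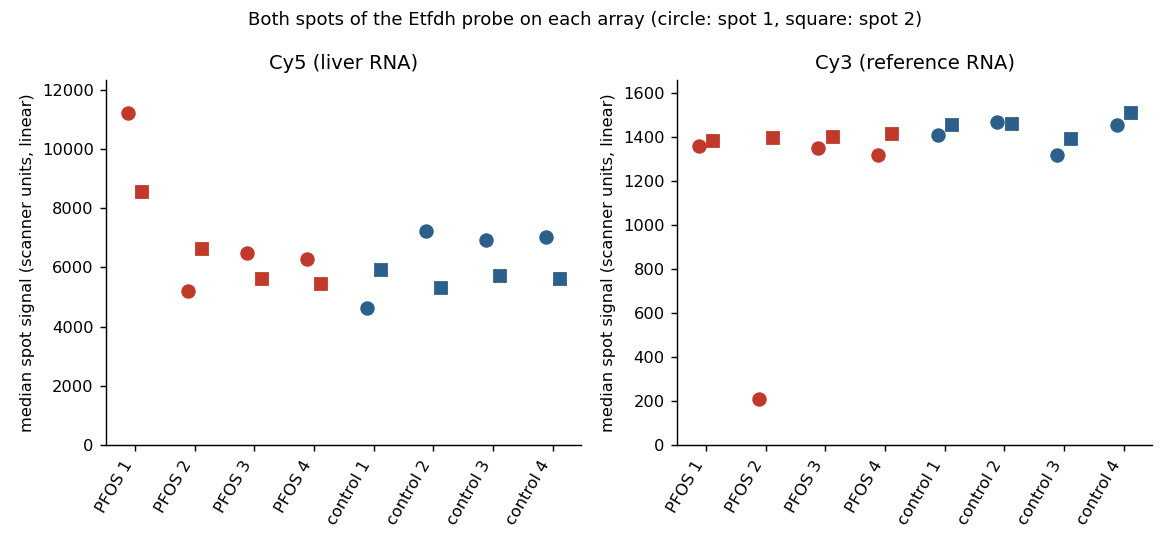
Raw median signals of both spots of the Etfdh probe on each array, on linear axes from 0, in Cy5 (left panel, liver RNA) and Cy3 (right panel, reference RNA), with PFOS arrays in red and control arrays in blue. Spot 1 of PFOS 2 has 208 units in Cy3, and all others lie between 1320 and 1510.

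The ratio holds the reference channel, so the 10 genes were also read in each channel alone. In Cy5 alone, 2.39% of all features were called higher, and of the 10 genes these were Gcdh (0.70, SE 0.084, adjusted p = 0.002285 in limma) and Etfa. The median change over the 10 genes was 0.15 here too, and 8 of 10 were above 0. In Cy3, where every array holds the same pool, none of the 10 genes was called, and 12 of all features were. Gcdh had a Cy3 change of -0.10 and Etfdh of -0.35, both opposite to their changes in the ratio, and the other 8 lay between -0.01 and 0.05. For Gcdh, the Cy3 means of the reference were 12.71 on PFOS arrays and 12.81 on control arrays on the log2 scale. The Cy5 means were 15.55 in PFOS livers and 14.85 in control livers.

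**Figure D3:**
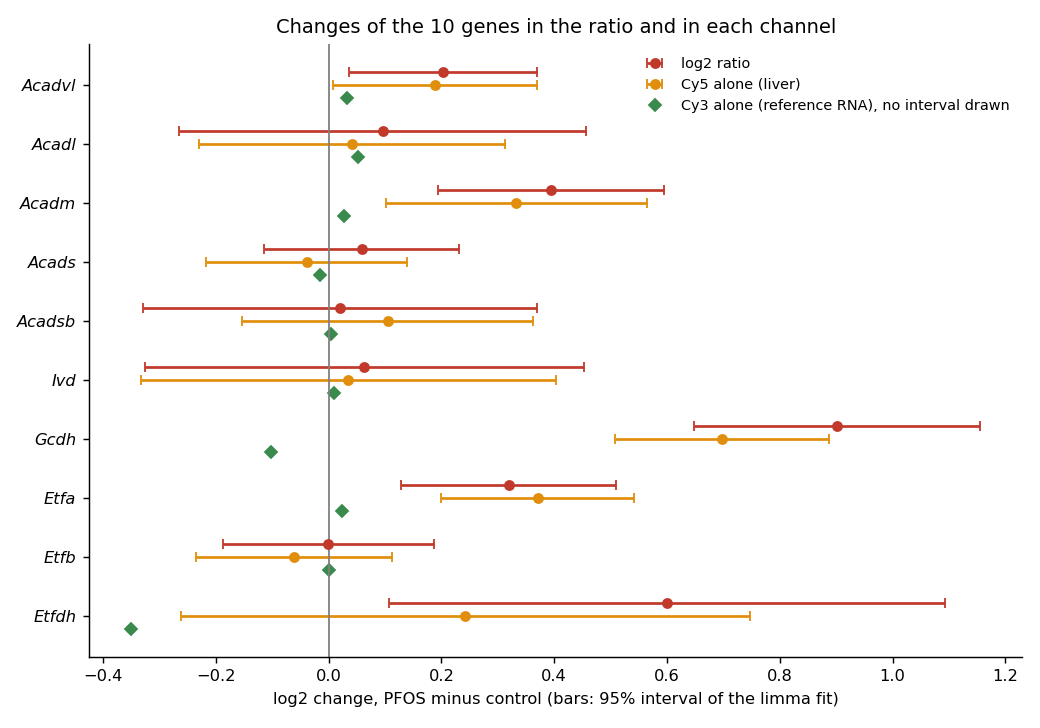
Log2 change (PFOS minus control, horizontal axis) of the 10 genes in the ratio (red), in Cy5 alone (orange) and in Cy3 alone (green), with 95% intervals of the limma fit for the first pair. The Gcdh intervals, 0.65 to 1.16 in the ratio and 0.51 to 0.89 in Cy5, lie apart from 0, and the Etfdh ratio of 0.60 stands beside a Cy3 change of -0.35.

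After normalization, all 10 genes were higher in liver than in the reference pool: mean ratios in control livers were 4.24-fold (Etfa) to 19.0-fold (Acadm). These folds rest on the normalization. Before it, the raw medians of Etfa on control 4 were 1299 in Cy5 and 1599 in Cy3. Livers of 1 group differed least for Acadvl, with a pooled SD of 0.068 on the log2 ratio, and most for Etfdh, with 0.368. For Acadl, Acadsb and Ivd the pooled SDs were 0.258, 0.249 and 0.282, and these genes have the wider intervals above. The typical SD between spots of 1 array was 0.032 for Acadl, 0.121 for Acadsb and 0.194 for Ivd, below the SD between rats in all 3. On the Acadl array of control 4 the SD between spots was 0.456, against 0.0036 to 0.061 on the others, and without the spot of 3.884 the pooled SD of Acadl was 0.183. For Etfb, Acads, Acadm and Acadvl the SD was larger between spots (0.223, 0.164, 0.158 and 0.087) than between rats (0.094, 0.076, 0.109 and 0.068). The first is of single spots, the second of array values that average 2 spots, or up to 10 for Acadm. The larger spot SDs therefore do not show that spots add more spread to an array value than rats do. In Etfb, Acads, Acadvl and Ivd spot 1 lay above spot 2 on every array. In Acadm spots 1 to 3 lay above spots 6 to 10 on every array. The SD between spots of these genes thus holds a steady gap. Between slide rows, the changes of Acadm were 0.44 in row 1 and 0.35 in row 2, those of Etfa 0.31 and 0.33, and those of Acadvl 0.20 and 0.21. Acadl had 0.18 in row 1 and 0.01 in row 2, Acads 0.16 and -0.05, Acadsb -0.08 and 0.12, and Etfb -0.05 and 0.05.

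Whether one gene changed more than another was tested for all 45 pairs, as the difference of their log2 ratios on each array, with an exact two-sided permutation test over the 8 arrays. No pair passed after adjustment (smallest adjusted p 0.129), and the smallest p the 70 splits allow, 0.0286, was reached by 10 pairs. With 45 pairs, 26 would have had to reach it for any to pass, so the lack of passing pairs says little about whether the changes were equal. In 7 of these Gcdh had the larger change, against Etfb, Acadsb, Acads, Ivd, Acadl, Acadvl and Etfa, by 0.90, 0.88, 0.84, 0.84, 0.81, 0.70 and 0.58. Acadm had the larger change in 2, against Etfb and Acads, and Etfa in 1, against Acads. Gcdh exceeded Acadm by 0.51 (exact permutation p = 0.0571). In Cy5 alone 13 pairs reached the smallest p, also fewer than the 26 needed.

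The call for Gcdh was kept in 22 of 24 alternative settings, with changes of 0.83 to 1.03, and was lost where only 1 slide row was used (adjusted p 0.0951 in row 1 and 0.213 in row 2, with 2 rats a group). Acadm was called in 6 of the 24, in none of the 8 that left out an array, and its changes ran from 0.34 to 0.54. Etfa was called in none of the 24 in the ratio, with adjusted p of 0.062 to 0.479, and in 4 of 13 settings in Cy5 alone. In Cy5 alone Etfa kept its call in 2 of the 8 fits with an array left out, those without control 1 or control 3 (adjusted p 0.0295 to 0.0665 over the 8). No setting called Acadvl, Acadl, Acads, Acadsb, Ivd, Etfb or Etfdh in the ratio.

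**Figure D4:**
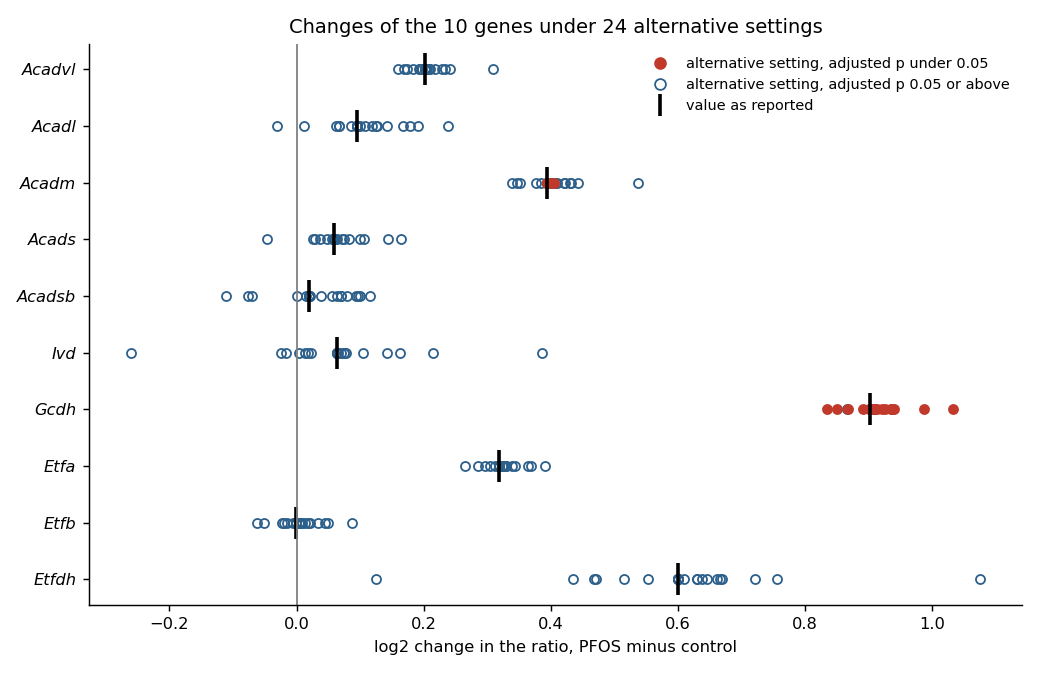
Log2 change in the ratio (PFOS minus control, horizontal axis) of each gene under 24 alternative settings (circles, filled red where the adjusted p was under 0.05) with the reported value as a black bar. Gcdh lies between 0.83 and 1.03, Etfdh spreads from 0.13 to 1.08, and Etfb, Acadsb and Ivd scatter around 0.

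The genes whose profile over the 8 arrays was nearest to Gcdh, by the root mean square difference of log2 ratios each set to its own control mean, were Chrdl1 (0.129), Gadd45b (0.136) and Lysmd2 (0.140). Chrdl1 encodes a secreted antagonist of bone morphogenetic proteins and Gadd45b a stress-induced growth arrest protein. Their log2 changes were 0.82, 1.05 and 0.86, values near that of Gcdh because they were chosen for it.

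The 10 genes were set beside 73 others of the surrounding pathways, of which 64 were tested. Of these, 14 were called higher and 1 lower, beside 1.83% and 2.14% of all features, with a median log2 change of 0.13. The lists were chosen with earlier results of these data known. Among other acyl-CoA dehydrogenases and oxidases, Acad9, an acyl-CoA dehydrogenase needed for complex I assembly, changed by 0.40 (adjusted p = 0.0324 in limma), a call that held in 1 of the 8 fits with an array left out. Acad11 (0.33) and the peroxisomal oxidases Acox2 (0.43) and Acox3 (-0.10) did not pass, and Acad8, Acad10 and Acad12 were not tested.

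The later steps of mitochondrial beta-oxidation and its isomerases had 6 of 8 genes called higher, with a median change of 0.48. Eci1, an isomerase for unsaturated chains, changed by 2.34, a fold of 5.06, with means of 5.63 ± 0.18 in PFOS livers and 3.29 ± 0.37 in control livers (SD, n = 4 each). Decr1, the dienoyl-CoA reductase, changed by 1.22, Hadhb and Hadha, the subunits of the trifunctional protein, by 0.62 and 0.49, the thiolase Acaa2 by 0.47 and Hadh, the short-chain hydroxyacyl-CoA dehydrogenase, by 0.47. The call of Acaa2 held in 2 of the 8 fits with an array left out, those without PFOS 4 or control 4. Hadh was not called in Cy5 alone (0.27, adjusted p = 0.066 in limma). Eci2 (0.35, adjusted p = 0.0514) missed the threshold in the ratio and passed it in Cy5 alone (0.32, adjusted p = 0.0371). Echs1, the short-chain enoyl-CoA hydratase that follows Acads and Acadm, had a change of -0.09 that did not pass.

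In the carnitine shuttle, which brings acyl groups into mitochondria, 3 of 5 genes were called higher, with a median of 0.51. These were Crat, carnitine acetyltransferase (1.835), Cpt2, the inner-membrane palmitoyltransferase (0.73), and the carrier Slc25a20 (0.51). Cpt1a, the outer-membrane palmitoyltransferase, had -0.40 and the carnitine importer Slc22a5 0.20, and neither passed.

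Dmgdh, Sardh and D2hgdh, which hand electrons to ETF from dimethylglycine, sarcosine and D-2-hydroxyglutarate, had changes of -0.42, 0.08 and 0.08. None of the 3 passed, and Dmgdh alone of them had an adjusted p under 0.05 in any setting (0.0355 with 1 array left out). Among genes of riboflavin and FAD supply, which provide the cofactor of the dehydrogenases, 1 was called higher and 1 lower of 5 tested. Slc25a32, the mitochondrial carrier linked to FAD, changed by 0.44 (adjusted p = 0.0238 in limma). Rfk, riboflavin kinase, the first step from riboflavin to FAD, changed by -0.56 (adjusted p = 0.019), with means of 1.19 ± 0.17 in PFOS livers and 1.75 ± 0.11 in control livers (SD, n = 4 each). With an array left out, Slc25a32 was called in 4 of 8 fits (not without any 1 of the control arrays) and Rfk in 7 (adjusted p = 0.0506 without control 3). Flad1, FAD synthase, had 0.04, and the riboflavin transporters Slc52a2 and Slc52a3 had 0.22 and -0.15. Etfrf1 and Etfbkmt, which act on ETF itself, were not tested.

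Leucine, isoleucine and valine breakdown, the pathway of Ivd and Acadsb, had 2 of 18 tested genes called higher, with a median change of 0.16. They were Acat1, the mitochondrial acetoacetyl-CoA thiolase (0.75, adjusted p = 0.00492 in limma), and Hibch, the hydroxyisobutyryl-CoA hydrolase of valine breakdown (0.68, adjusted p = 0.00376).

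Lysine and tryptophan breakdown, which leads to the substrate of Gcdh, had none of 10 tested genes called in the ratio by limma, with a median of 0.05. Aass, the first enzyme of lysine breakdown, had the largest value, 1.27 (SE 0.313, adjusted p = 0.0599), and passed in Cy5 alone (1.11, adjusted p = 0.005702). Dhtkd1, a subunit of the oxoadipate dehydrogenase just before Gcdh, had 0.21 in the ratio and passed in Cy5 alone (0.35, adjusted p = 0.0191). Acmsd, which diverts a tryptophan intermediate towards glutaryl-CoA, had -1.17 (adjusted p = 0.218). In the synthesis of ubiquinone, the electron acceptor of Etfdh, none of 9 tested genes was called by limma in the ratio or in Cy5, with a median of 0.12, and the smallest p values were those of Coq6 (0.22), Coq4 (0.22) and Coq5 (0.15).

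**Figure D5:**
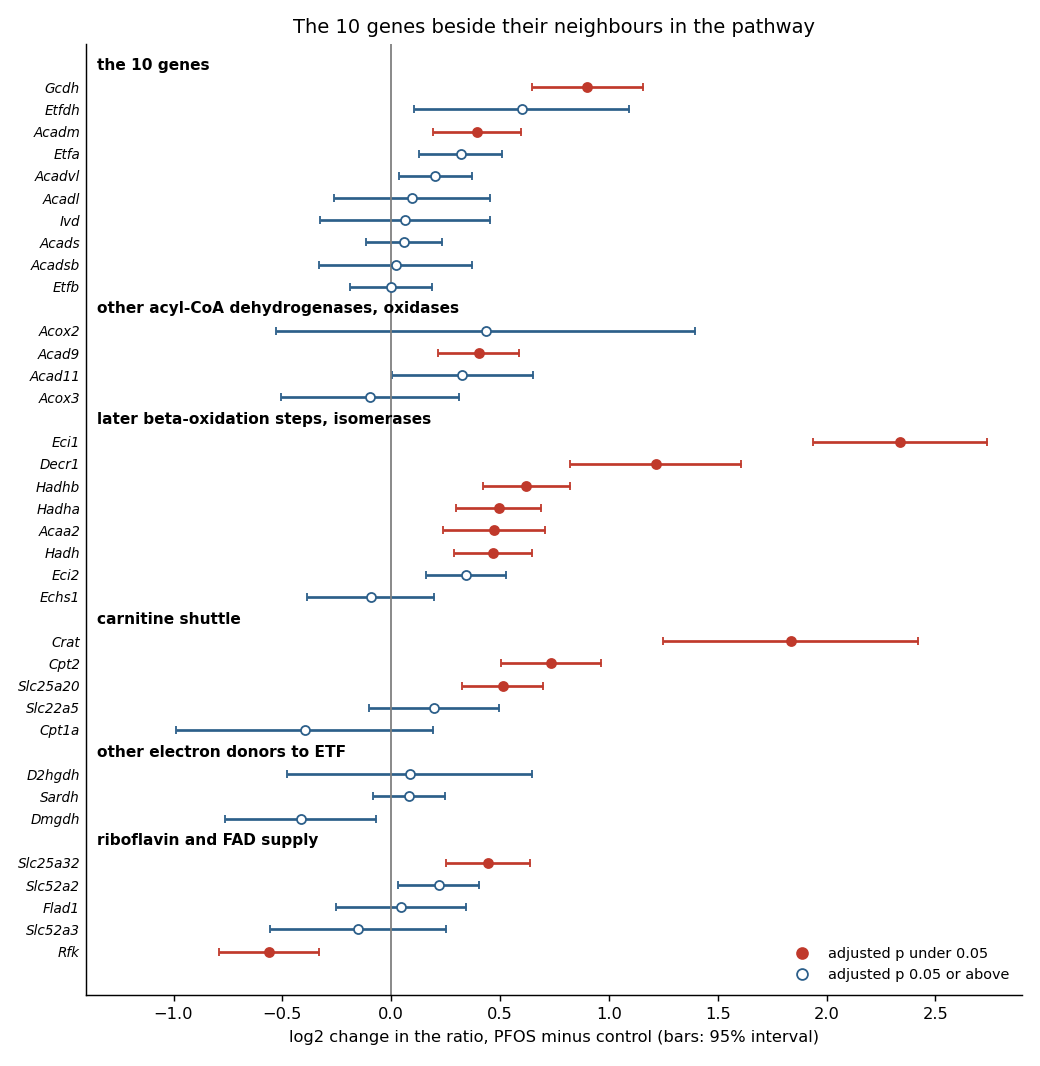
Log2 change in the ratio (PFOS minus control, horizontal axis, bars for the 95% interval) of the 10 genes and of the tested genes reported here from 5 neighbouring lists, filled red where the adjusted p was under 0.05. Eci1 (2.34) and Crat (1.835) lie furthest to the right, and Rfk (-0.56) is the gene called lower.

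Markers of liver cell types were read beside these values. Of 45 written, 39 were tested and none was called in the ratio by limma, and all 8 hepatocyte markers, such as Alb and Cps1, were well above background on all 8 arrays. The summed linear Cy5 signal of the 8 hepatocyte markers, as a percent of the highest array, was 84.8 to 88.97 in PFOS livers and 93.36 to 100 in control livers. Apoa1, which is part of that sum, was called lower in Cy5 alone (-1.79, adjusted p = 0.000168 in limma) but not in the ratio (-0.38). It was also called lower in Cy3 alone (-1.38, adjusted p = 0.0128 in limma), where every array holds the same reference pool. No other hepatocyte marker was called in Cy5 alone. In the ratio 3 of the 8 had changes above 0, the largest that of Tat (0.84, and 0.98 in Cy5 alone, called in neither). The summed signal was 54.1 to 89.7 in PFOS livers and 62.1 to 100 in control livers for 6 macrophage markers. For 4 of 6 endothelial markers it was 41.5 to 59.2 in PFOS livers and 54.8 to 100 in control livers. Median log2 changes in the ratio, another measure, were -0.09 for the hepatocyte, -0.24 for the macrophage and -0.36 for the endothelial markers. They were -0.14 for 7 stellate and fibroblast markers, 0.10 for 4 of 5 cholangiocyte markers and -0.06 for 5 of 6 lymphocyte markers. For 3 erythroid markers the median was -0.47 and for 2 of 4 proliferation markers -0.37. The summed Cy5 signal of the cholangiocyte markers was 83.3 to 100 in PFOS livers and 67.3 to 83.98 in control livers. The part of these differences in the changes of Gcdh, Acadm and Etfa was not tested.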

How the data were processed

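Liver RNA of 4 PFOS and 4 control rats was measured on Agilent SurePrint G3 rat arrays. Groups came from the sample labels. Replicate numbers follow accession order. The authors deposited scanner files of linear intensity per spot, made with Agilent Feature Extraction (version 10.7.3.1), according to their headers and to the submitters' processing notes. The authors also deposited log2 values for each probe. Their columns correlated at 0.9949 to 0.9968 (slopes 0.9891 to 0.9931) with log2 Cy5/Cy3 values from signals with no background subtracted, from which scale and direction were read. Their medians were -0.0518, -0.0609, -0.061 and -0.0527 for PFOS 1 to 4 and -0.048, -0.0539, -0.0518 and -0.0568 for control 1 to 4, and the centring is unknown.

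From the 62976 spots of each array, median signals were corrected with normexp (offset 50), then loess was fitted within arrays, giving the 4259 control spots no weight. Spots marked as outliers (733 to 991 per array) were left out, no spot was saturated, and spots of a probe were averaged. For Cy5 or Cy3 alone, quantile normalization replaced loess. Of 30367 probes, 18004 had a symbol by accession in RefSeq (GRCr8). A probe was kept if its Cy5 signal was well above background on 4 arrays or more (16952). The brightest probe stood for a gene, which left 15203 features, and a fit across all kept probes called the same number of the 10 genes, 2. Groups were compared with limma 3.58.1 (R 4.3.3), and its two-sided p-values were adjusted with Benjamini-Hochberg. Tables were read with the data.table package (version 1.17.8) and jsonlite 2.0.0, and plots drawn with matplotlib 3.10.9. The fit was tested on simulated data. Only 4 arrays a group limit the precision.

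The 10 genes, the pathway lists and the tests were chosen with earlier results of these data known. The named genes are the 10 genes, all tested genes of the lists on other dehydrogenases and oxidases, electron donors, later beta-oxidation, carnitine and riboflavin, the 3 smallest p of each other pathway list, and the 3 genes nearest to Gcdh. A few results of these lists are withheld for evaluation and not reported here, though the counts and medians of the lists hold them. Apoa1 and the other markers named come from the marker lists.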

Additional observations from a re-analysis of the deposited data

Results flagged for a closer look

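In 60 groups of 4 values (10 genes, the ratio and each channel, PFOS and control), 3 had a rat whose gap to its nearest neighbour exceeded Dixon's 95% critical value for 4 values, and chance gives about 1 in 20. Etfdh in PFOS 2 had a log2 ratio of 4.937, where the other PFOS rats had 4.231 to 4.351. Its log2 Cy3 signal was 9.13, where the other PFOS arrays had 10.44 to 10.54. Both come from the spot with 208 units in Cy3, without which the ratio of PFOS 2 was 3.784. Etfb on the array of PFOS 2 had a log2 Cy3 signal of 13.82, where the other PFOS arrays had 13.88, and control arrays had 13.85 to 13.88.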

How the results depend on the processing

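The count of features called in the ratio, 604, was 239 with median centring, 268 with slide column as a block, 93 within slide row 1, 32 within slide row 2, and 350 to 519 with each array left out. The count of the 10 genes called in the ratio, 2, was 1 with an offset of 0, scaling between arrays, median centring, processed signals, no filter on dim probes, the authors' table, the trend and robust options and slide column as a block, 0 within slide row 1 or 2, and 1 in each fit with an array left out. The count of pathway genes called higher, 14, was 8 with median centring, 9 with slide column as a block, 2 within slide row 1, 0 within slide row 2, and 11 to 13 with each array left out. In Cy5 alone, 731 features were called, 407 with the 75th percentile, 446 with slide column as a block and 420 to 685 with each array left out. The count of the 10 genes called there, 2, was 1 with the 75th percentile, processed signals and slide column as a block, and 1 to 2 with each array left out. Fits on 1 slide row hold 2 rats a group and so fewer samples. The cause of the other moves was not tested. The count of 0 pairs past adjustment in the ratio, in Cy5 alone and with median centring says nothing about stability, since 26 of 45 pairs at the smallest p were needed.

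Of 1645 alternative values, 41 changed sign, all of genes that passed neither before nor after. In the ratio, Etfb was 0.00385 without background subtraction, 0.0204 with offset 0, 0.0451 with median centring, 0.0874 with scaling, 0.00659 with array weights and 0.0499 within slide row 2, and -0.0625 to 0.0339 with each array left out. Within slide row 1, Acadsb was -0.0758, Cpt1a 0.117 and Coq5 -0.0666, and within slide row 2 Acads was -0.0466, Ivd -0.26 and D2hgdh -0.00101. Acox2 was -0.0900 with offset 0, Dmgdh 0.127 with processed signals and Echs1 0.00356 with scaling. With each array left out, changes ran from -0.0304 to 0.238 (Acadl), -0.111 to 0.1001 (Acadsb), -0.0237 to 0.215 (Ivd), -0.0603 to 0.724 (Acox2), -0.256 to 0.0012 (Acox3), -0.13 to 0.23 (D2hgdh), -0.268 to 0.0026 (Slc52a3) and -0.0532 to 0.142 (Flad1). In Cy5 alone, Acads was 0.0717 with the 75th percentile and 0.0564 with processed signals, Etfb 0.0221 and 0.0339, and left-out fits gave -0.0593 to 0.132 for Acadl and -0.0596 to 0.169 for Ivd. No paired analysis was possible because replicate numbers follow accession order and pair no animals. With 2 spots a probe for 8 of the 10 genes, 1 spot that lies apart can move an array value, as in Etfdh and Acadl.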
